A study of Mus musculus with 6 samples.

Results

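Axon guidance ligands and receptors were examined in mouse primary stromal cells cultured on collagen carrying aortic carboxypeptidase-like protein (col1-ACLP, n = 3 libraries) and on collagen alone (col1, n = 3). The set was defined by gene name and not by expression, but it was chosen with earlier results of these data known. It comprised every protein-coding gene named as a semaphorin of classes 3 to 7, a plexin, a neuropilin, a Slit, a Robo, a netrin, an Unc5 receptor, an Eph receptor or an ephrin. This gave 68 of the 56748 genes counted, 35 ligands and 33 receptors, of which 61 had enough reads to be tested among 17717 tested genes. ACLP is a secreted protein of the extracellular matrix that binds collagen. Recombinant ACLP was present at 30 nM while the collagen of the col1-ACLP gels polymerized and at 0 nM for the col1 gels. In both groups, wild-type C57BL/6 mice of both sexes, aged 12 weeks, were the source of stromal vascular fraction from gonadal white fat, which was plated on 12 kPa hydrogels coated with 0.05 mg/mL collagen and harvested after 48 h. This fraction is the cell suspension left when adipocytes float off digested fat, so it was a mixed population and not a clone.

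Guidance cues were named for steering growing axons, and the same proteins act on blood vessels, immune cells and stromal cells. Class 3 semaphorins are secreted and bind neuropilins, which pair with plexins to signal into the cell, whereas most other semaphorins are anchored to the membrane and bind plexins directly. Slits are large secreted proteins bound by Robo receptors, netrins are laminin-related matrix proteins bound by Dcc and Unc5 receptors, and ephrins are membrane-anchored ligands of the Eph receptor tyrosine kinases that signal between touching cells.

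Library totals were 37389976 to 45155866 counts on col1-ACLP and 33343651 to 47142754 counts on col1, and the guidance genes held 0.275% to 0.315% of counts on col1-ACLP and 0.277% to 0.284% on col1. A gene with 3 counts, the floor of detection used here, lay at 0.0624 to 0.0889 CPM (counts scaled to the normalized library total). The labels call the cells stromal or mesenchymal stem cells, and the 11 stromal progenitor and fibroblast markers were counted in every library, with a summed level of 22848 to 33321 CPM on col1-ACLP and 20520 to 24030 CPM on col1. Of these 11 markers 4 had a positive log2 fold change (median -0.14), so the sum does not stand for all of them. Markers of other cell types were present too. The 12 endothelial markers summed to 1106 to 1404 CPM on col1-ACLP and 1269 to 1496 CPM on col1, and the 12 macrophage markers to 685 to 765 CPM on col1-ACLP and 676 to 800 CPM on col1. The 9 mural markers summed to 368 to 483 CPM on col1-ACLP and 365 to 391 CPM on col1. The 11 Schwann cell and neuron markers summed to 70.2 to 83.2 CPM on col1-ACLP and 60.1 to 73.8 CPM on col1, with Snap25 at 0 in every library. Adipocyte markers (8 genes) summed to 1423 to 1549 CPM on col1-ACLP and 1544 to 2162 CPM on col1. Nearly all of this sum was Lpl (mean 1146.5 CPM on col1-ACLP, 1380 CPM on col1) and Fabp4 (291 and 363 CPM). The next marker, Pnpla2, averaged 23.7 CPM on col1-ACLP and 27.6 CPM on col1, and Adipoq had 0.703 to 1.93 CPM over all libraries. The adipocyte sum is therefore mainly the level of Lpl and Fabp4 and does not rank adipocytes against other cell types. Lymphocyte markers (10 genes) summed to 3.23 to 5.71 CPM on col1-ACLP and 3.56 to 5.22 CPM on col1, with the B cell marker Ms4a1 at 0. In bulk RNA, fewer cells of a type and less RNA per cell cannot be told apart. The study calls the libraries of a group biological replicates. Whether they represent different animals or cultures is not in the labels, so the p-values cover only the variation among these libraries, part of which may be technical.

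Nrp1, which encodes neuropilin 1, was the only guidance gene that rose on col1-ACLP by both thresholds, which were a log2 fold change beyond ±0.58 and an adjusted p under 0.05. None fell. Of all tested genes 1.38% passed both thresholds, with 0.66% raised and 0.722% lowered, so 1 of 61 guidance genes (1.64%) is a share near the background. Unc5b, a netrin receptor, was higher on col1-ACLP at an adjusted p under 0.05 but below the fold threshold. By that p alone, 0.931% of all tested genes were higher and 1.12% lower, beside 2 guidance genes higher and 0 lower. At an unadjusted p under 0.05 there were 9 guidance genes (14.8%), against 14.9% of all tested genes. Of these 9, 7 were higher and 2 lower on col1-ACLP, against 7.6% of all tested genes higher and 7.26% lower. The libraries of the 2 groups did not overlap in 10 guidance genes (16.4%), against 20.4% of all tested genes. Of these 10, col1-ACLP lay above col1 in 8 and below it in 2, against 10.2% of all tested genes in each direction. The median log2 fold change was 0.06 over the guidance genes and 0.01 over all tested genes.

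Receptors and ligands were counted apart. Of the 27 tested receptors 20 had a positive log2 fold change, with a median of 0.15. Of the 34 tested ligands 16 had a positive one, with a median of -0.02, beside 51.1% of all tested genes. By family, positive values were found in 8 of 10 plexins and neuropilins, 9 of 20 semaphorins, 4 of 6 netrins and Unc5 receptors, 6 of 7 Slit and Robo genes, 7 of 10 Eph receptors and 2 of 8 ephrins. The family medians were 0.13 for plexins and neuropilins, -0.05 for semaphorins, 0.16 for netrins and Unc5 receptors, 0.36 for Slit and Robo genes, 0.09 for Eph receptors and -0.05 for ephrins. These are descriptions, since genes of a family share libraries and are not replicates, and no difference between families was tested.

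**Figure D1:**
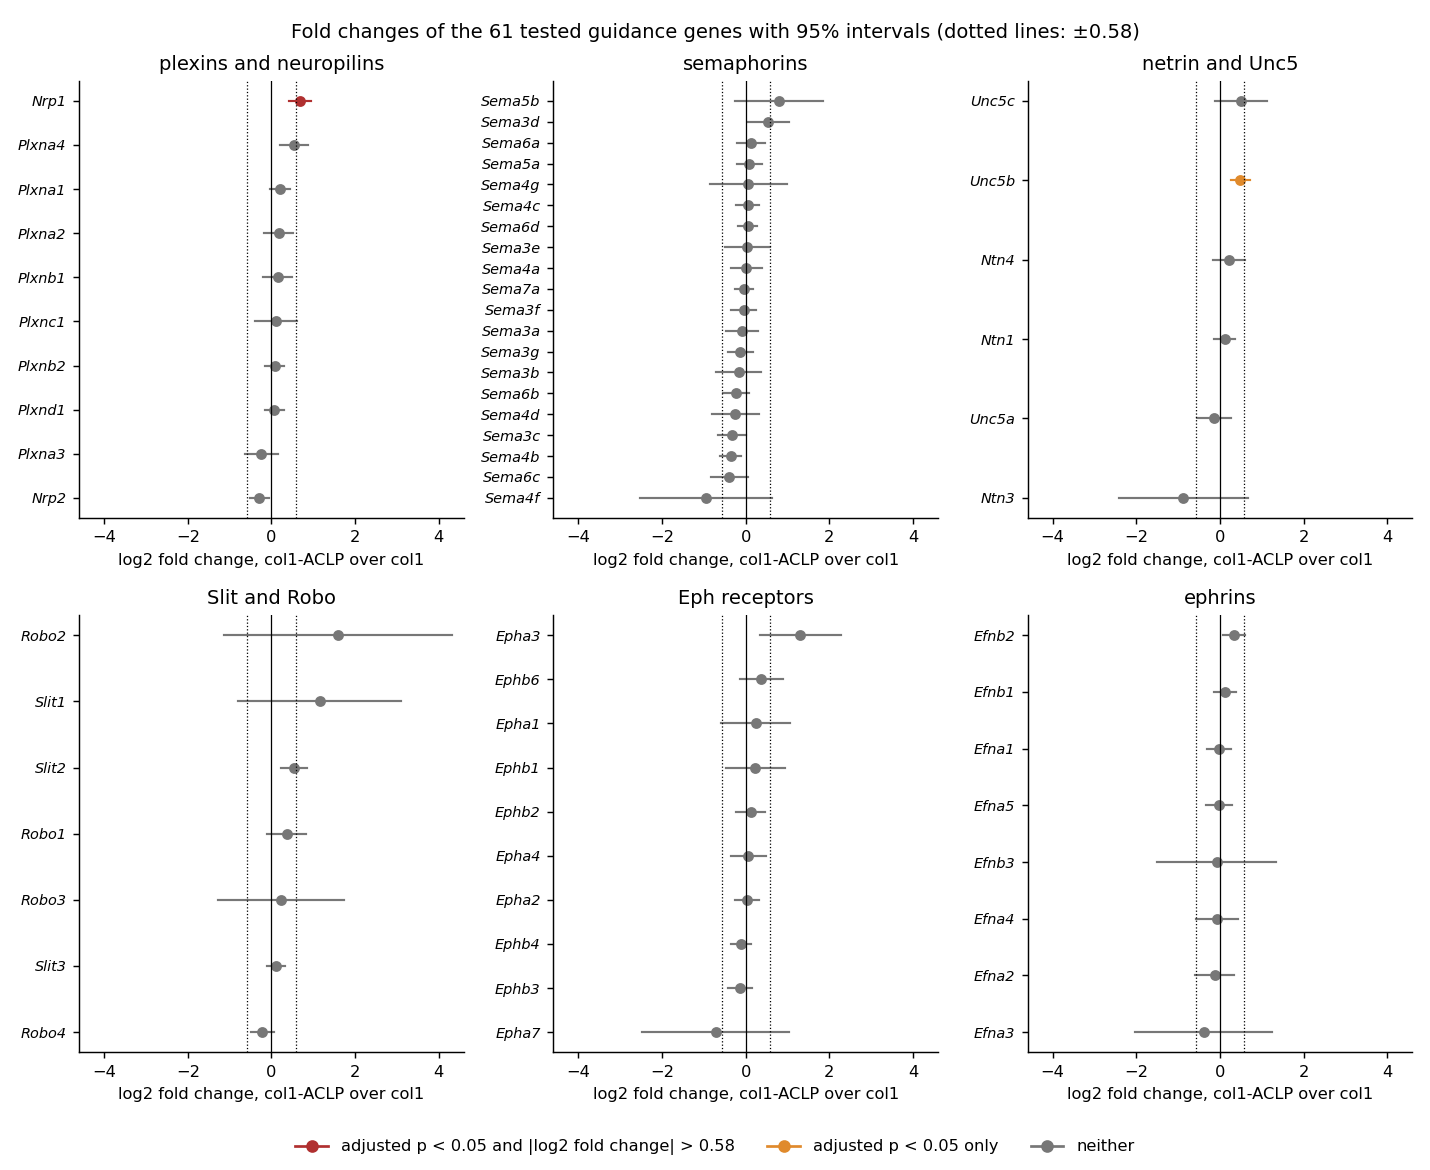
Log2 fold changes (x axis, col1-ACLP over col1) with 95% intervals for the 61 tested guidance genes, 1 panel per family and 1 row per gene, from edgeR's quasi-likelihood fit to 3 libraries per group. Dotted lines mark ±0.58, Nrp1 alone is drawn past both thresholds and Unc5b alone past the adjusted p only, and the widest intervals belong to genes with few counts such as Robo2.

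The values of the 4 genes of smallest p, and of Nrp2, are described below, and Nrp1 alone of these passed both thresholds. The sequences just before their start sites are shown here, that of Nrp2 for comparison with Nrp1. They were read from the GRCm39 genome before the GENCODE vM39 canonical start, up to 250 bases and without bases that an exon of the same gene covers. They are written 5′ to 3′ on the gene's strand. Capitals mark matches on either strand to 6 motifs, the GC box (GGGCGG), a TEAD motif (CATTCC), a SMAD motif (CAGAC), an AP-1 motif (TGANTCA), an E-box (CACGTG) and the CArG box, and 2 matches that overlap form 1 run of capitals in Nrp2.
Nrp1, chr8:129085427-129085464, plus strand: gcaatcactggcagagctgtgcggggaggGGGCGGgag
Unc5b, chr10:60667397-60667646, minus strand: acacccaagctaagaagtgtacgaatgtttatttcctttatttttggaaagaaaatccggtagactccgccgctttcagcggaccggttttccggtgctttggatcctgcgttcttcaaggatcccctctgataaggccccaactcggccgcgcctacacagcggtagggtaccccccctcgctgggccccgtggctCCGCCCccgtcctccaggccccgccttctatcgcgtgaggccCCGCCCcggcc
Slit2, chr5:48140230-48140479, plus strand: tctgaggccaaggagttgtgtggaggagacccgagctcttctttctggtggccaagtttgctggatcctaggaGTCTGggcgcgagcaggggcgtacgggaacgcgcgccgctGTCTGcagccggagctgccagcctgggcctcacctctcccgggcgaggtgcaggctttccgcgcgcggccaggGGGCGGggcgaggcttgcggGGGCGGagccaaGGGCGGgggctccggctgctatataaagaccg
Plxna4, chr6:32565194-32565443, minus strand: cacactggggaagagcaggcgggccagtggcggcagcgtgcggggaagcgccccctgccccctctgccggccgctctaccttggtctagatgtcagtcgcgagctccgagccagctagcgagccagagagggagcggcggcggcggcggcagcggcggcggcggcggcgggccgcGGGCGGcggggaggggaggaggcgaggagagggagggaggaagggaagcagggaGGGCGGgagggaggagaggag
Nrp2, chr1:62742194-62742443, plus strand: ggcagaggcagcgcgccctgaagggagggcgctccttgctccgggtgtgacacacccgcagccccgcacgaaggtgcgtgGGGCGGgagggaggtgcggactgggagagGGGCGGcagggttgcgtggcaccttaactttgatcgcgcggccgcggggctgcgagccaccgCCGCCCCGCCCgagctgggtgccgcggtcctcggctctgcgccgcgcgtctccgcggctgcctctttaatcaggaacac
The printed stretch of Nrp1 is short because other Nrp1 transcripts start upstream of the canonical one. Over the full window of 250 bases, Nrp1 held 1 GC box and 1 SMAD match, Unc5b 2 GC boxes, Slit2 3 GC boxes and 2 SMAD matches, Plxna4 2 GC boxes and Nrp2 4 GC boxes. The GC box was found in 40 of the 61 windows of tested guidance genes (65.57%) and in 36.32% of the 21770 protein-coding windows. The sets are unlike, since the 61 genes had enough reads to be tested and the 21770 include genes that had not. Differences between them in this paragraph can therefore not be assigned to guidance genes as such, and none was tested. The guidance gene windows had a median GC content of 62.0% and a median of 14 CpG pairs, against 53.2% and 8 over all windows. SMAD matches were found in 54.1% of guidance gene windows and 41.35% of all, TEAD matches in 14.75% and 12.11%, AP-1 matches in 3.28% and 6.17%, and E-boxes in 1.64% and 6.26%. The CArG box was found in 0 of the 61 windows and in 1.4% of all. A match is a run of letters and not evidence of binding, and a window without one says only that the letters are not there.

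Neuropilins are co-receptors that bind class 3 semaphorins and forms of vascular endothelial growth factor. Nrp1 (ENSMUSG00000025810, chr8:129085085-129229844, plus strand) had 101, 82.0 and 76.4 CPM in the 3 col1-ACLP libraries, against 48.8, 57.2 and 55.0 CPM in the 3 col1 libraries. Every col1-ACLP library lay above every col1 library, and col1-ACLP library 1 was the highest. The log2 fold change of Nrp1 was 0.69 ± 0.12 (SE, n = 3 per group, 95% interval 0.43 to 0.95), a fold of 1.61, with an adjusted p of 0.00649 by edgeR's quasi-likelihood test with Benjamini-Hochberg adjustment. Without col1-ACLP library 1 the log2 fold change of Nrp1 was 0.56 (adjusted p = 0.0321 by the same edgeR test), which is below the fold threshold. Of the 31-base words of its canonical transcript, 6.25% occur in transcripts of another gene, so a small part of its reads could be shared.

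Nrp2 (ENSMUSG00000025969, chr1:62742444-62857854, plus strand), the other neuropilin, lay in the opposite direction. It had 143, 130 and 128 CPM in the col1-ACLP libraries, against 156, 155 and 179 CPM in the col1 libraries. The groups did not overlap, with all 3 col1-ACLP libraries below all 3 col1 libraries. The log2 fold change of Nrp2 was -0.29 ± 0.10 (SE, 95% interval -0.51 to -0.07) and did not pass adjustment (adjusted p = 0.185, edgeR). As a description chosen after these values were seen, and with no test, the ratio of Nrp1 to Nrp2 counts within a library was 0.707, 0.63 and 0.598 on col1-ACLP and 0.314, 0.368 and 0.307 on col1. The mean ratio was 0.645 ± 0.0558 on col1-ACLP and 0.329 ± 0.0335 on col1 (SD, n = 3 each), so Nrp1 was the less counted of the pair in every library, by less on col1-ACLP.

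Neuropilins are found on endothelial cells and macrophages as well as on stromal cells, so markers of those and other cell types are given beside them. None of the 12 endothelial markers was called, their median log2 fold change was -0.16, and 3 of the 12 were positive. None of the 12 macrophage markers was called either, with a median of -0.08 and 3 of 12 positive. The mural markers had a median of 0.12 with 6 of 9 positive, and the Schwann cell and neuron markers 0.11 with 6 of 7 tested. The adipocyte markers had -0.24 with 2 of 8 positive, and the lymphocyte markers -0.22 with 2 of 5 tested. In these 4 lists 0 markers were called. Among the 11 stromal markers, Col1a1, a chain of type I collagen, was raised (log2 fold change 0.79, adjusted p = 0.00633, edgeR). The progenitor surface marker Ly6a (-0.68, adjusted p = 0.000782, edgeR) and Pi16 (-1.16, adjusted p = 0.00249, edgeR) were lowered. Below the fold threshold, Dcn was lower (-0.57, adjusted p = 0.00668, edgeR) and Col1a2 higher (0.47, adjusted p = 0.0398, edgeR). Leaving out each library in turn gave Col1a2 adjusted p-values of 0.00768 to 0.185 (edgeR). The stromal median was -0.14, with 4 of 11 positive. Of the 5 tested mast cell markers 3 were lowered, the proteases Tpsb2, Mcpt4 and Cma1, but without col1 library 1 their adjusted p-values were 0.0798, 0.0828 and 0.169 (edgeR). Tpsb2 was also short of the threshold without col1-ACLP library 3 (0.0569), and Cma1 without col1-ACLP library 1 (0.0951) or 3 (0.0994). Mcpt4 had 0.113 to 0.301 CPM on col1-ACLP, near the floor. Kit, the mast cell marker of highest level (26.2 to 34.6 CPM over all libraries), had -0.04 and Fcer1a -0.26, and neither was called. The mast cell median was -1.56, with 0 of 5 positive. Of the 9 mesothelial markers 1 was lowered, Upk3b (adjusted p = 0.0396, edgeR), which had 0.0582 to 0.122 in the 6 fits that each left out 1 library. Krt8 was lower but below the fold threshold (-0.53, adjusted p = 0.0233, edgeR), with 0.0201 to 0.162 in those 6 fits. The mesothelial median was -0.35, with 3 of 9 positive. The 9 mitochondrial transcripts had a median log2 fold change of 0.46, with all 9 positive. Of these, 4 had an unadjusted p under 0.05 (edgeR) and 0 were called. They summed to 28600 to 59542 CPM on col1-ACLP and 27844 to 40284 CPM on col1. The part of these cell type and quality markers in the Nrp1 result was not tested.

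Plexins are the signalling receptors of semaphorins. Plxna4 (ENSMUSG00000029765, chr6:32121203-32565127, minus strand), a partner of neuropilins, had 42.3, 30.0 and 27.5 CPM in the col1-ACLP libraries, against 22.9, 24.5 and 21.7 CPM in the col1 libraries. The col1-ACLP libraries were all higher, with library 1 apart from the other two. Its log2 fold change was 0.53 ± 0.16 (SE, 95% interval 0.20 to 0.86) with an adjusted p of 0.0991 (edgeR), short of the threshold, whereas it was 0.0336 with DESeq2 and 0.0155 with edgeR and no filter on low counts, in both cases below the fold threshold. Leaving out each library in turn gave log2 fold changes of 0.32 to 0.65, with the lowest value without col1-ACLP library 1. Plxna4os1, which overlaps it on the opposite strand, held 2.59% as many counts. The plexins of highest level per length were Plxnb2 and Plxnd1, receptors of class 4 and class 3 semaphorins. Levels per length are given in TPM (transcripts scaled to a common library total), computed from the counts and each gene's length. Plxnb2 averaged 119 ± 22.7 TPM on col1-ACLP and 114 ± 9.14 TPM on col1 (SD, n = 3 each). Plxnd1 averaged 101 ± 11.7 TPM on col1-ACLP and 97.1 ± 8.70 TPM on col1. The spreads of these 2 plexins over libraries overlapped. Within a library Plxnb2 was the higher in all but col1 library 3 (104.5 against 106.9 TPM), and their order was not tested. In CPM, Plxnb2 had 350, 272 and 316 in the col1-ACLP libraries, against 320, 292 and 279 in the col1 libraries. Plxnd1 had 266, 252 and 237 CPM in the col1-ACLP libraries, against 231, 218 and 270 CPM in the col1 libraries. The groups overlapped for both plexins. The 95% interval of the log2 fold change was -0.15 to 0.30 for Plxnb2 and -0.15 to 0.29 for Plxnd1. Nrp2 followed at 33.2 ± 4.24 TPM on col1-ACLP and 40.8 ± 2.59 TPM on col1, and Plxna1 at 32.6 ± 7.40 TPM on col1-ACLP and 28.4 ± 1.48 TPM on col1. Nrp1 averaged 26.1 ± 5.60 TPM on col1-ACLP and 16.3 ± 1.49 TPM on col1. Plxnc1, a receptor of Sema7a, averaged 2.12 ± 0.632 TPM on col1-ACLP and 1.98 ± 0.463 TPM on col1, the lowest of the tested plexins.

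**Figure D2:**
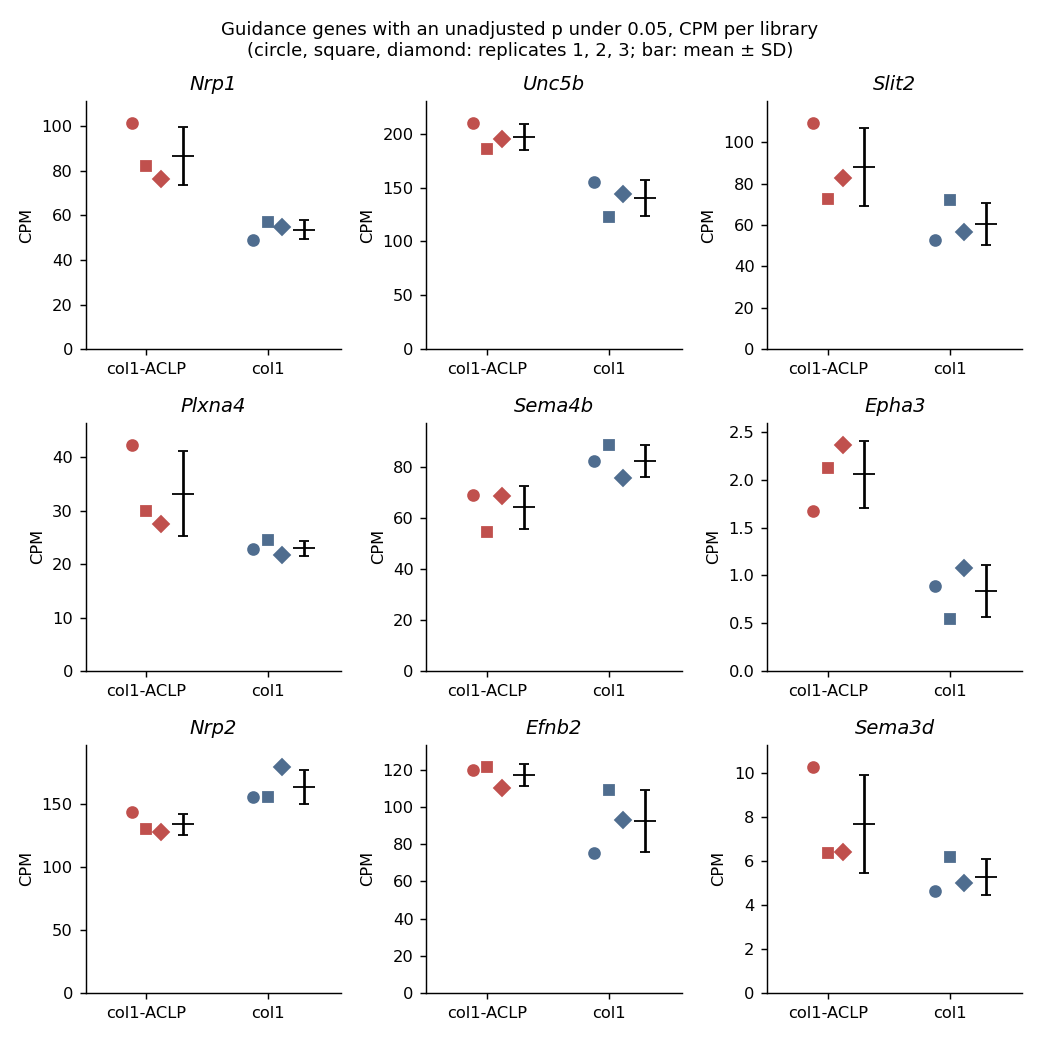
CPM (y axis, linear from 0) in each library for the 9 guidance genes with an unadjusted p under 0.05, with col1-ACLP left of col1, replicates as circle, square and diamond, and the mean ± SD as a bar. Nrp1 sits between 76.4 and 101 CPM on col1-ACLP, above its 48.8 to 57.2 CPM on col1, whereas Nrp2 and Sema4b sit lower on col1-ACLP.

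All 20 semaphorins were tested and none was called. Sema4b (ENSMUSG00000030539, chr7:79836589-79876275, plus strand), a membrane-anchored class 4 semaphorin, had 69.2, 54.4 and 68.8 CPM in the col1-ACLP libraries, against 82.5, 88.5 and 75.8 CPM in the col1 libraries. All 3 col1-ACLP libraries were lower. Its log2 fold change was -0.36 ± 0.12 (SE) with an adjusted p of 0.144 (edgeR). Sema3d (ENSMUSG00000040254, chr5:12433352-12638915, plus strand), a secreted ligand of neuropilins, had 10.3, 6.37 and 6.41 CPM on col1-ACLP, against 4.65, 6.20 and 4.99 CPM on col1. Here col1-ACLP library 1 was far above the rest, and the other 2 col1-ACLP libraries lay just above the highest col1 library. The log2 fold change of Sema3d was 0.54 ± 0.23 (SE, adjusted p = 0.283, edgeR), and it was 0.27 to 0.66 when each library was left out in turn, lowest without col1-ACLP library 1.

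The semaphorin of highest level per length was Sema7a, a membrane-anchored ligand that also binds integrins. It averaged 130 ± 6.22 TPM on col1-ACLP and 136 ± 5.09 TPM on col1 (SD, n = 3 each), with 135, 163 and 142 CPM in the col1-ACLP libraries and 157, 142 and 156 CPM in the col1 libraries. The groups overlapped, and the interval of its log2 fold change was -0.27 to 0.18. Sema4b came next in level, at 33.4 ± 6.17 TPM on col1-ACLP and 43.3 ± 4.35 TPM on col1. It did not differ beyond the spread from Sema4c (37.6 ± 3.81 TPM on col1-ACLP, 36.8 ± 6.83 TPM on col1). Sema3f (32.9 ± 5.05 TPM on col1-ACLP, 34.7 ± 3.17 TPM on col1) overlapped Sema4b on col1-ACLP and lay below it in every col1 library. Among the secreted class 3 ligands of Nrp1 and Nrp2, Sema3c had a log2 fold change of -0.33 (95% interval -0.67 to 0.01), Sema3a -0.09 (-0.47 to 0.29) and Sema3f -0.05 (-0.34 to 0.25). Sema3g, a class 3 semaphorin of endothelial cells, had -0.13 (-0.43 to 0.16).

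Netrins and their Unc5 receptors held the other gene past an adjusted p of 0.05. Unc5b (ENSMUSG00000020099, chr10:60598372-60667360, minus strand), a receptor of netrin 1 that is also known from vessel sprouting, had 210, 186 and 195 CPM in the col1-ACLP libraries, against 155, 123 and 144 CPM in the col1 libraries. Every col1-ACLP library was higher than every col1 library. Its log2 fold change was 0.49 ± 0.11 (SE, 95% interval 0.26 to 0.72), a fold of 1.4, with an adjusted p of 0.0258 by edgeR's quasi-likelihood test. The adjusted p of Unc5b was above 0.05 without col1-ACLP library 1 (0.0906) or 3 (0.111) and without col1 library 2 (0.128) or 3 (0.102), and the log2 fold change was 0.39 to 0.56 over the 6 fits that each left out 1 library (edgeR). Unc5b led its family in level per length, at 92.5 ± 11.9 TPM on col1-ACLP and 66.5 ± 6.92 TPM on col1. The endothelial marker values given beside the neuropilins apply here as well, and their part in the Unc5b result was not tested.

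Ntn1, the netrin that Unc5b binds, had 80.2, 63.6 and 71.6 CPM in the col1-ACLP libraries, against 61.0, 65.1 and 73.7 CPM in the col1 libraries. The groups overlapped, and the log2 fold change of Ntn1 was 0.11 ± 0.12 (SE, 95% interval -0.14 to 0.36). It averaged 33.7 ± 6.16 TPM on col1-ACLP and 31.4 ± 2.62 TPM on col1. Ntn4, a netrin of basement membranes, averaged 9.37 ± 2.35 TPM on col1-ACLP and 8.10 ± 0.850 TPM on col1. The co-receptor Dcc, the classical attractive netrin receptor, had 0 counts in every library. Unc5c was named after its values were seen, because its libraries did not overlap although its unadjusted p was 0.104 (edgeR). It averaged 3.35 ± 0.135 CPM on col1-ACLP and 2.36 ± 0.414 CPM on col1.

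Of the Slits and Robos, Slit2 (ENSMUSG00000031558, chr5:48140480-48465075, plus strand), a secreted Robo ligand, had 109, 72.5 and 82.4 CPM in the col1-ACLP libraries, against 52.6, 71.9 and 56.7 CPM in the col1 libraries. The groups did not overlap, but col1-ACLP library 2 and col1 library 2 lay side by side. The log2 fold change of Slit2 was 0.54 ± 0.15 (SE, 95% interval 0.23 to 0.86) with an adjusted p of 0.0743 (edgeR). With DESeq2 the adjusted p was 0.0155 and with edgeR and no filter on low counts it was 0.000662, in both cases below the fold threshold. It passed both thresholds without col1-ACLP library 2 (0.66, adjusted p = 0.0282, edgeR) and without col1 library 2 (0.67, adjusted p = 0.0394, edgeR). Leaving out each of the 6 libraries in turn gave 0.36 to 0.67, with the lowest value without col1-ACLP library 1.

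Slit3, a Slit known from stromal and vascular cells, had the highest level of all guidance genes per the table's gene length, at 192 ± 33.8 TPM on col1-ACLP and 179 ± 5.48 TPM on col1. Per the length of its canonical transcript it stood below Plxnb2 and Sema7a. It had 445, 369 and 373 CPM in the col1-ACLP libraries, against 378, 347 and 377 CPM in the col1 libraries. These overlapped, and the log2 fold change of Slit3 was 0.11 ± 0.10 (SE, 95% interval -0.11 to 0.32). The receptor of highest level in this family was Robo4, which is found mainly on endothelial cells. It averaged 23.4 ± 0.999 TPM on col1-ACLP and 27.7 ± 3.66 TPM on col1, with 39.2, 47.1 and 41.3 CPM in the col1-ACLP libraries and 56.9, 46.5 and 45.2 CPM in the col1 libraries. The groups overlapped in CPM, and its log2 fold change was -0.22 ± 0.13 (SE, 95% interval -0.49 to 0.05). Robo1, a main Slit receptor, averaged 2.21 ± 0.607 TPM on col1-ACLP and 1.72 ± 0.508 TPM on col1. Robo2 had the largest log2 fold change of the set, 1.58 with a 95% interval of -1.14 to 4.31, and this rested on 12, 15 and 14 counts in the col1-ACLP libraries and 12, 0 and 0 counts in the col1 libraries.

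Eph receptors and ephrins held 0 called genes of 18 tested. Epha3 (ENSMUSG00000052504, chr16:63363897-63684538, minus strand), a receptor of A-type ephrins, had 1.68, 2.13 and 2.36 CPM in the col1-ACLP libraries, against 0.889, 0.541 and 1.08 CPM in the col1 libraries. The col1-ACLP libraries were all higher, on 67, 94 and 87 counts against 30, 26 and 46. Epha3 had a log2 fold change of 1.30 ± 0.46 (SE, 95% interval 0.33 to 2.27) and an adjusted p of 0.176 (edgeR). Efnb2 (ENSMUSG00000001300, chr8:8667434-8711242, minus strand), an ephrin of arterial endothelium and other cells, had 120, 122 and 110 CPM in the col1-ACLP libraries, against 75.2, 109 and 93.3 CPM in the col1 libraries. The lowest col1-ACLP library and the highest col1 library were close. The log2 fold change of Efnb2 was 0.34 ± 0.12 (SE, adjusted p = 0.191, edgeR), and 13.74% of its transcript's 31-base words occur in another gene, so its counts are uncertain.

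Ephb4, a receptor of Efnb2 known from venous endothelium, had the highest level of the Eph receptors per length, at 56.9 ± 4.57 TPM on col1-ACLP and 62.2 ± 6.98 TPM on col1. It had 91.7, 90.4 and 88.1 CPM in the col1-ACLP libraries, against 109, 84.5 and 99.5 CPM in the col1 libraries. The col1-ACLP values lay inside the col1 range, and the interval of the log2 fold change of Ephb4 was -0.35 to 0.12. Epha2, which binds A-type ephrins, averaged 20.6 ± 0.927 TPM on col1-ACLP and 20.6 ± 3.10 TPM on col1, with a log2 fold change of 0.03 (95% interval -0.26 to 0.31). It had 31.2, 36.2 and 31.7 CPM in the col1-ACLP libraries, against 27.4, 36.3 and 33.6 CPM in the col1 libraries, which overlapped. Of the ephrins, Efna1, a lipid-anchored ligand, averaged 68.6 ± 5.05 TPM on col1-ACLP and 70.5 ± 8.56 TPM on col1. The groups overlapped, with 38.0, 49.4 and 41.9 CPM in the col1-ACLP libraries and 46.3, 36.5 and 48.0 CPM in the col1 libraries, and the log2 fold change of Efna1 was -0.02 (95% interval -0.30 to 0.27). Efnb1, a transmembrane ligand, averaged 54.9 ± 8.45 TPM on col1-ACLP and 51.2 ± 6.96 TPM on col1, with a log2 fold change of 0.11 (-0.16 to 0.37). Its libraries overlapped too, at 70.4, 59.5 and 63.3 CPM on col1-ACLP and 68.1, 50.6 and 60.7 CPM on col1. It did not differ beyond the spread in level from Efnb2, at 50.2 ± 4.45 TPM on col1-ACLP and 40.1 ± 7.90 TPM on col1.

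**Figure D3:**
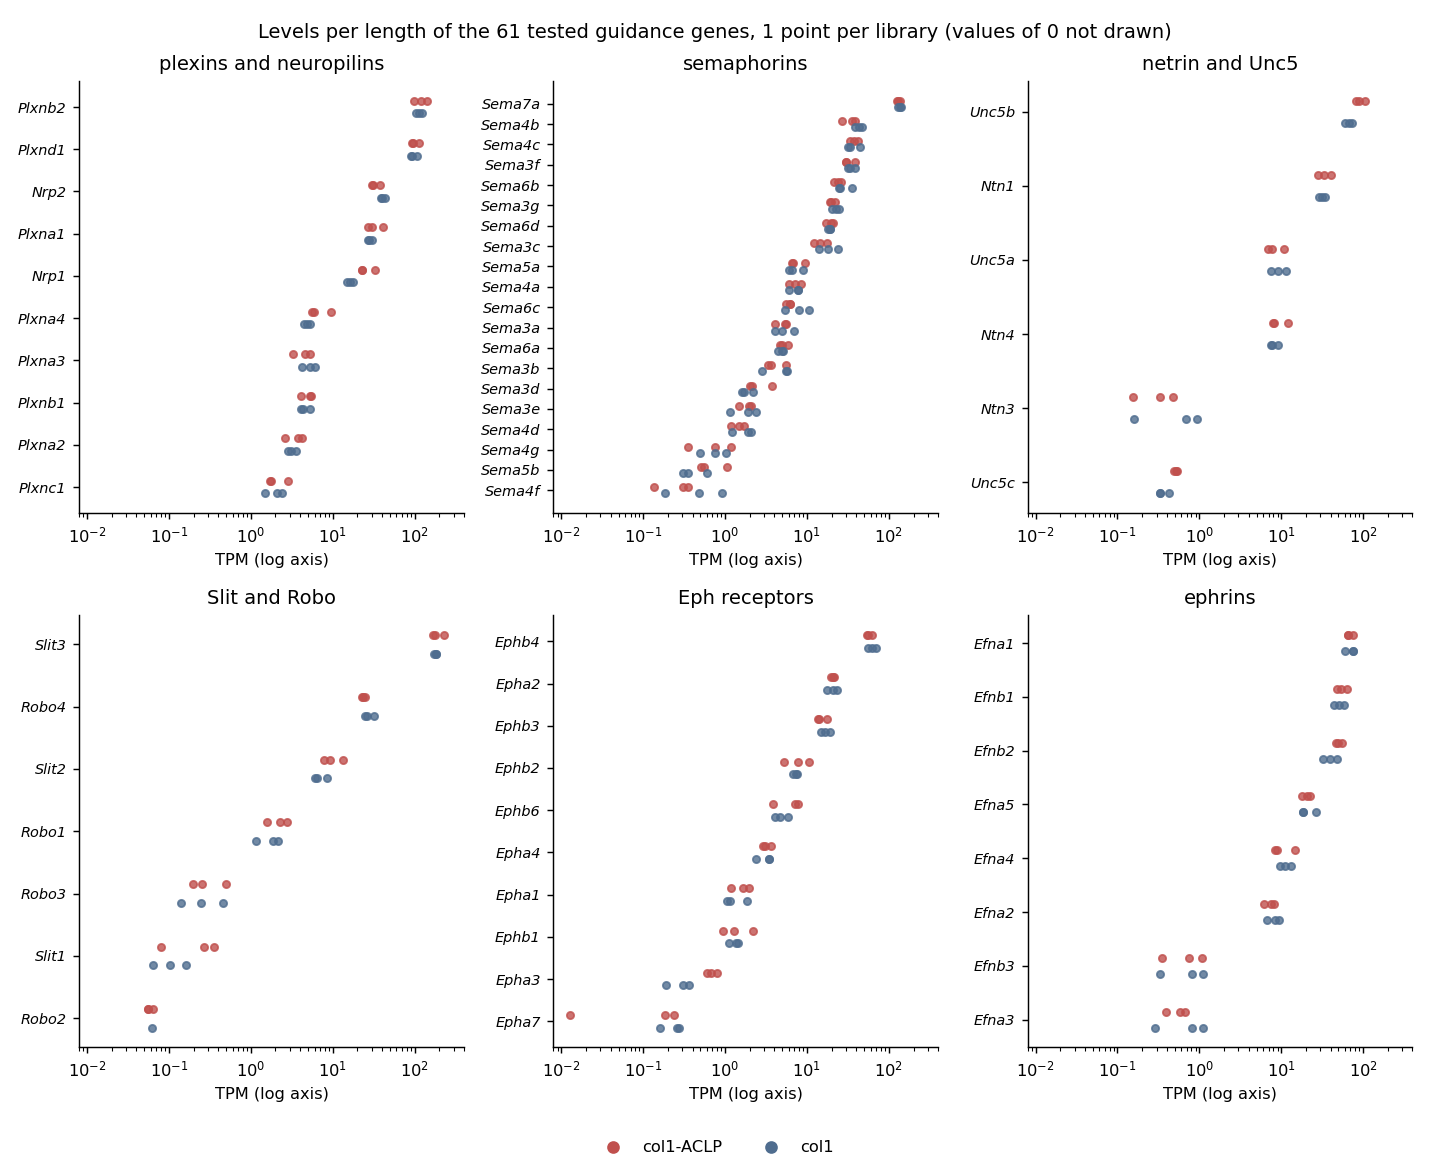
Level per gene length of the table (x axis, TPM, log scale) of the 61 tested guidance genes by family, 1 point per library with col1-ACLP above col1 in each row, and values of 0 not drawn. Slit3 and Sema7a stand at the top of their families above 100 TPM, and the points of the groups lie over each other in most rows.

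Levels across families spanned a wide range. Taking the mean of all 6 libraries, Slit3 (186 TPM), Sema7a (133 TPM), Plxnb2 (117 TPM) and Plxnd1 (99.1 TPM) led, followed by Unc5b (79.5 TPM), Efna1 (69.5 TPM) and Ephb4 (59.6 TPM). With the length of the canonical transcript in place of the gene's length in the table, an alternative added after the data were seen, Slit3 stood at 95.7 TPM, below Plxnb2 (102 TPM) and Sema7a (100.3 TPM). Of the leading genes, 10 of the 12 (2 per family) stayed. Ephb3 took the place of Epha2, at 19.1 TPM against 18.7 TPM, and Efnb2 that of Efnb1, at 46.9 TPM against 42.0 TPM. On that length Slit2 stood at 16.8 TPM instead of 8.64 and Nrp1 at 30.7 TPM instead of 21.2.

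At the low end, 7 guidance genes did not pass the filter on low counts. Plxnb3 had 19, 14 and 9 counts in the col1-ACLP libraries, against 4, 9 and 2 in the col1 libraries. Ntn5, Unc5d, Epha5, Epha6, Epha8 and Epha10 had at most 8 counts in any library, which left no comparison to make. Across the tested genes, 8 had an absolute log2 fold change above 0.58 at any p, against 16.4% of all tested genes. Apart from Nrp1 these were Epha3, Sema5b, Sema4f, Slit1, Robo2, Ntn3 and Epha7, each of which averaged at most 2.06 CPM in either group. The counts of Ntn3, Unc5a and Epha1 are uncertain because each overlaps a gene with more counts than its own, Tbc1d24, Hk3 and Zyx. Of the leading genes, Epha2 and Plxnb2 share 8.14% and 7.27% of their 31-base words with another gene.

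Libraries were compared for 1 that leads the set. The highest value of the 6 was in col1-ACLP library 1 for 17 of the 61 tested guidance genes (27.9%), against 22.4% of all tested genes. The lowest was in that library for 6 guidance genes (9.84%), against 19.6% of all tested genes. Nrp1, Unc5b, Slit2, Plxna4 and Sema3d all had their highest value there. Whether this library differed in its cells or its preparation was not tested.

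Other genes of the guidance pathways were counted in 4 lists, of co-receptors and other cues and of effectors inside the cell. Of 117 genes 109 were tested, 1 was raised and 1 was lowered (1.83% against the 1.38% of all tested genes), and their median log2 fold change was 0.04. At an unadjusted p under 0.05 (edgeR) there were 21 of the 109, against 14.9% of all tested genes. These were 12 of 35 semaphorin and plexin effectors and 4 of 26 co-receptors and other cues. The Slit, Robo and netrin effectors had 3 of 26, and the Eph and ephrin effectors 2 of 23. No difference between lists was tested. Mical2, an enzyme that oxidizes actin and belongs to a family of plexin effectors, rose to 167, 152 and 140 CPM in the col1-ACLP libraries, against 103, 92.2 and 96.6 CPM in the col1 libraries. The difference of Mical2 on the log2 scale was 0.66 ± 0.10 (SE, adjusted p = 0.00266, edgeR), with no overlap of the groups. Draxin, a secreted cue that binds netrin 1 and Dcc, fell to 26.2, 16.5 and 17.5 CPM in the col1-ACLP libraries, against 39.2, 30.0 and 34.1 CPM in the col1 libraries. That of Draxin was -0.78 ± 0.17 (SE, adjusted p = 0.024, edgeR), again with no overlap. Draxin did not pass without col1-ACLP library 2 (adjusted p = 0.0708) or 3 (0.135) or without col1 library 1 (0.115) or 3 (0.0678), at log2 fold changes of -0.66 to -1.02 over the 6 fits that each left out 1 library (edgeR), whereas Mical2 passed in all 6.

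Among the 35 tested semaphorin and plexin effectors, Dpysl3, a collapsin response mediator, was higher at an adjusted p under 0.05 but below the fold threshold (log2 fold change 0.53, adjusted p = 0.0117, edgeR). The small GTPase Rras had -0.42 (adjusted p = 0.059) and Farp2, an exchange factor that binds class A plexins, 0.92 (adjusted p = 0.0904). Of the 26 tested co-receptors and other cues, Gpc1, a heparan sulfate proteoglycan that binds Slits, was higher below the fold threshold (0.50, adjusted p = 0.0297, edgeR), and Chl1 (-0.74, adjusted p = 0.0867) and Wnt5a (0.47, adjusted p = 0.134) did not pass. Of the 26 tested Slit, Robo and netrin effectors, Srgap1, a GTPase-activating protein that binds Robo1, was lower below the fold threshold (-0.48, adjusted p = 0.0329, edgeR). Ablim1, an actin-binding protein, did not pass (-0.41, adjusted p = 0.0701, edgeR). None of the 23 tested Eph and ephrin effectors was called. The smallest p-values there belonged to Kalrn (0.40, adjusted p = 0.235), Anks1 (-0.31, adjusted p = 0.259) and Rasa1 (0.25, adjusted p = 0.496, edgeR).

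The adjusted p-values of Dpysl3, Gpc1 and Srgap1 depended on single libraries. Leaving out each library in turn gave 0.0184 to 0.0652 for Dpysl3, 0.0548 to 0.129 for Gpc1 and 0.0484 to 0.12 for Srgap1 (edgeR).

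**Figure D4:**
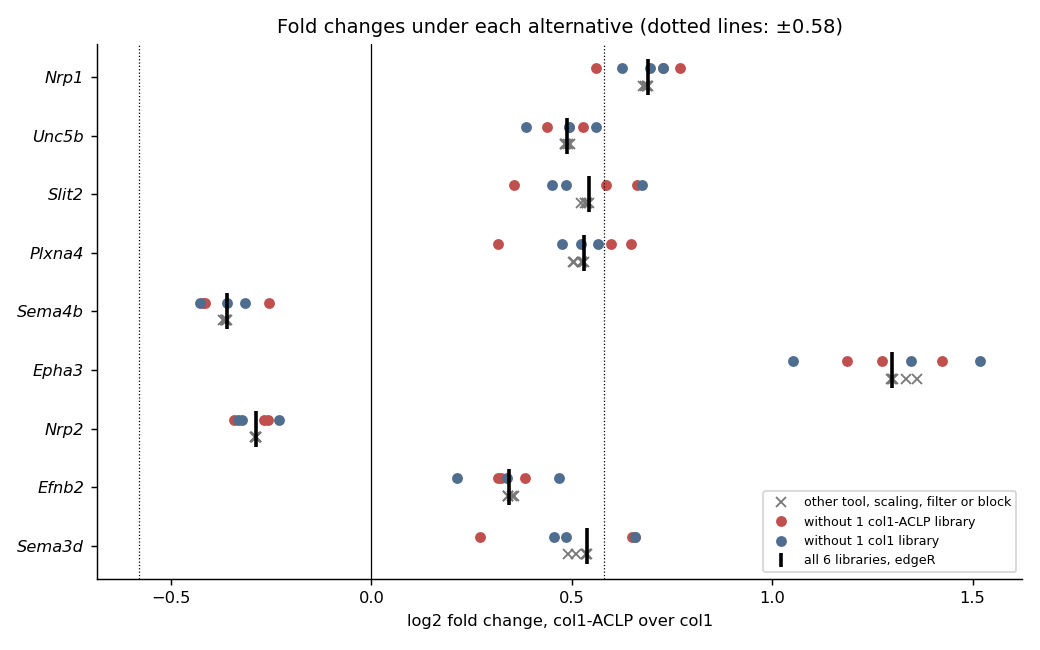
Log2 fold changes (x axis, col1-ACLP over col1) of the 9 guidance genes with an unadjusted p under 0.05 under each alternative, with black bars for all 6 libraries, coloured points for fits without 1 library and crosses for other tools, scalings, filters or the replicate block. Dotted lines mark ±0.58, and Nrp1 ranges over 0.56 to 0.77 and Slit2 over 0.36 to 0.67 when 1 library is left out.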

How the data were processed

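RNA of 6 libraries (3 col1-ACLP, 3 col1) was sequenced after polyA selection. The authors deposited whole-number raw counts for each gene, in 1 column per library, and 0 other per-sample columns were present. The study's methods name HISAT2 and GRCm39, while the submitters' processing notes name HISAT2 and mm10. Of the 56748 identifiers, 56017 were in GENCODE vM39, each on the chromosome the table gives, and 92.01% began within 1000 bases of the annotated start, so the table's coordinates are read as GRCm39. The counting program and any use of strand were not given in the sources used here, so reads of overlapping genes cannot be told apart.

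Groups were taken from the sample titles. Library totals were 33343651 to 47142754 counts, and floors of 3 counts cover counting error only. Replicates differed beyond sampling noise (chi-square over its degrees of freedom 24.5 to 70.1 for pairs within a group), so each was counted as 1. Genes were filtered with edgeR's filterByExpr (minimum count 10, minimum total 15), normalized by TMM and tested by edgeR 4.0.16 (R 4.3.3) with the quasi-likelihood test, two-sided, in a design with group alone. Benjamini-Hochberg adjustment was made over all 17717 tested genes, and genes were called at an adjusted p under 0.05 with an absolute log2 fold change above 0.58, the study's thresholds. TPM were computed from counts and the table's gene lengths. Alternatives were DESeq2 1.42.0 (the study's tool), limma-voom (limma 3.58.1), RLE scaling, no filter, no minimum fold, a replicate block and leaving out each library.

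Named with values in every library were genes past both thresholds, past the adjusted p only or at an unadjusted p under 0.05, and the 2 genes of highest level per length in each family. Of the pathway lists, called genes and up to 3 further genes of smallest p were named. One gene that this rule names is not reported here. The guidance genes and the lists were chosen with earlier results of these data known. Shared sequence was counted as 31-base words of the canonical transcript. The fit was tested on simulated data.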

Additional observations from a re-analysis of the deposited data

How the results depend on the processing

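Over 19 named guidance genes and 11 alternatives for each, 206 of 209 values kept their call, 3 did not and 10 had another sign, all 10 of them in genes that were not called. The 3 were Nrp1 without col1-ACLP library 1 (0.56) and Slit2 without col1-ACLP library 2 (0.66) or without col1 library 2 (0.67). A call here meant passing both thresholds, and Nrp1 alone was called in the fit to all libraries. For every other gene a kept call meant only that it stayed uncalled, so the tally says little about stability. Changes in the adjusted p alone, as for Unc5b, were not counted. Slit2 and Plxna4 joined Unc5b as past the adjusted p alone with DESeq2 and with no filter. Guidance genes raised numbered 1 in the fit to all libraries, 0 to 2 when each library was left out, and 2 with no minimum fold (Nrp1 and Unc5b). The number lowered was 0 throughout. At an unadjusted p under 0.05 there were 7 to 11 guidance genes over all fits, which tested 61 to 68 of them. The share of all tested genes at that p is given only for the fit to all libraries (14.9%). The range therefore has no background of its own and is not read as a result about guidance genes. Pathway genes raised numbered 1, 2 with DESeq2 and with no filter (Farp2 and Mical2), and 3 with no minimum fold (Dpysl3, Gpc1 and Mical2). Calls over all tested genes, given in the next paragraph, were also more numerous with each of these settings. Pathway genes lowered numbered 1, 2 with DESeq2 and with no filter (Chl1 and Draxin), 2 with no minimum fold (Draxin and Srgap1), and 0 to 2 when each library was left out, with 0 without col1-ACLP library 2 or 3 or col1 library 1 or 3 and 2 without col1-ACLP library 1. The cause was not tested.

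Over all tested genes, 117 were raised and 128 lowered, against 168 and 182 with DESeq2 and 165 and 199 with no minimum fold. With no filter on low counts, where 31605 genes were tested, 200 were raised and 189 lowered. Leaving out each library gave 68 to 166 raised and 71 to 123 lowered. Same-numbered libraries of the groups did not deviate together, with correlations of -0.05 to -0.02, so the numbers were not taken as pairs. With the replicate number as a block, 1 of 61 guidance genes was raised (Nrp1, 0.68, adjusted p = 0.0267, edgeR) and 0 were lowered. Of all 17717 tested genes, 101 were raised and 93 lowered in that fit. At an unadjusted p under 0.05 it had 8 guidance genes, with no share over all genes to set beside them. With the block, Gpc1 and Srgap1 had adjusted p-values of 0.0845 and 0.0847, Upk3b 0.0767, Krt8 0.0527 and Cma1 0.0588 (edgeR). With 3 libraries per group, genes near the floor such as Robo2 and Epha7 had intervals too wide to show a difference of the size seen in Nrp1.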
